A study of Homo sapiens with 12 samples.

Results

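The response of MCF10A cells labelled IL1R1-KO to a single dose of 20 Gy was read from 4 of the 12 RNA-seq libraries of the series, 2 of irradiated cells (IL1R1-KO RT) and 2 of untreated cells (IL1R1-KO). They were chosen by their sample labels, and no measured value entered the choice. MCF10A is a human breast epithelial line that grows without limit but forms no tumors. The series holds 6 groups of 2 libraries. Wild-type cells (WT) and cells with a guide against IL1RAP (IL1RAP-KO) were also sequenced untreated and after the same dose (marked RT), so that the response of IL1R1-KO cells could be set beside theirs. The KO cells were puromycin-selected pools, infected with a lentiviral vector that carries Cas9 and a guide RNA, and not single clones. Which guide a library came from and how long after irradiation RNA was taken are not given in the sources used here. Both libraries of a group are described by the study as biological repeats.

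Interleukin-1 (IL-1) binds the receptor chain IL1R1, which then pairs with IL1RAP and recruits MYD88 and the IRAK kinases. Through TRAF6, TAK1 (the product of MAP3K7) and the IKK complex, this relay frees the transcription factor NF-κB to switch on inflammatory genes. Ionizing radiation breaks DNA and activates p53, whose target CDKN1A (p21) blocks cyclin-dependent kinases and so keeps the RB family and the DREAM complex on the promoters of cell cycle genes. Cells with damaged DNA can also produce interferons, which act on a promoter element called ISRE.

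The values are the TPM (transcript abundances scaled to a fixed total per library) that the authors deposited, divided here by a trimmed mean factor per library and called scaled TPM below. Their read depth is unknown, so no counting interval is given. Fold changes are differences of log2(scaled TPM + 1), which understates the change of low genes, each with its standard error (SE), and adjusted p-values come from limma with Benjamini-Hochberg adjustment over 15303 genes. A gene is said to have risen, fallen or been called at an adjusted p under 0.05 with a fold change over 2. Values of a pair of libraries are given with replicate 1 before replicate 2. Transcripts of mitochondrial DNA took 21.1% and 19.98% of the TPM in the untreated IL1R1-KO libraries and 40.6% and 41.2% after RT. The replicates correlated at r = 0.985 before and 0.983 after RT across genes, and each untreated library correlated with an untreated IL1RAP-KO library at least as closely (r = 0.985 and 0.988). In IL1R1-KO replicate 2 the small cytoplasmic RNA RN7SL1 stood at 1209 TPM, against 178 TPM in replicate 1.

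IL1R1 (ENSG00000115594), the gene aimed at by the guides, was present as RNA in the libraries labelled IL1R1-KO, and a lower level than in WT was not detected. Its level was 10.99 and 7.79 scaled TPM in the untreated libraries and 8.34 and 7.38 after RT, beside 10.6 and 9.44 in WT and 7.38 and 6.07 in WT RT. These ranges overlap in untreated cells, and after RT the KO libraries were at or above the WT libraries, with log2 differences from WT of -0.10 before and 0.20 after RT. A guide can disrupt a protein without lowering its RNA, so that this measurement does not show whether the receptor was lost. The study found no suitable antibody for IL1R1. It reports instead that its IL1R1 knockout lines resisted degradation of the NF-κB inhibitor IκBα after IL-1, and takes this as evidence of knockout. Whether the sequenced cells came from those lines is not given in the sources used here. The cells are named by their label throughout. IL1RAP, the partner chain, was at 17.7 and 19.3 scaled TPM before and 11.8 and 14.4 after RT, a log2 difference of -0.47 (SE 0.21, adjusted p = 0.0951) that did not pass the test.

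IL1R1-KO cells had 1248 genes higher and 1248 genes lower after RT, each 8.16% of the 15303 genes tested and 16.3% in either direction. Interferon-induced genes led the rise and mitotic genes the fall. Of the 15 highest changes among genes of at least moderate level, 9 belonged to genes known to be induced by interferon, headed by IFI6 at a log2 fold change of 8.12. Of the 15 lowest, most were genes of mitosis or DNA replication, headed by CDC20 at -5.62 and UBE2C at -5.49, an activator and an E2 enzyme of the anaphase-promoting complex. The other strong rises were the histone gene H4C8, the stress factors DDIT3 and ATF3, the secreted zinc-binding glycoprotein AZGP1, the detoxifying enzyme CYP1A1 and the acute phase gene SAA2. In bulk RNA, fewer cells in a state and less RNA per cell cannot be told apart.

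**Figure D1:**
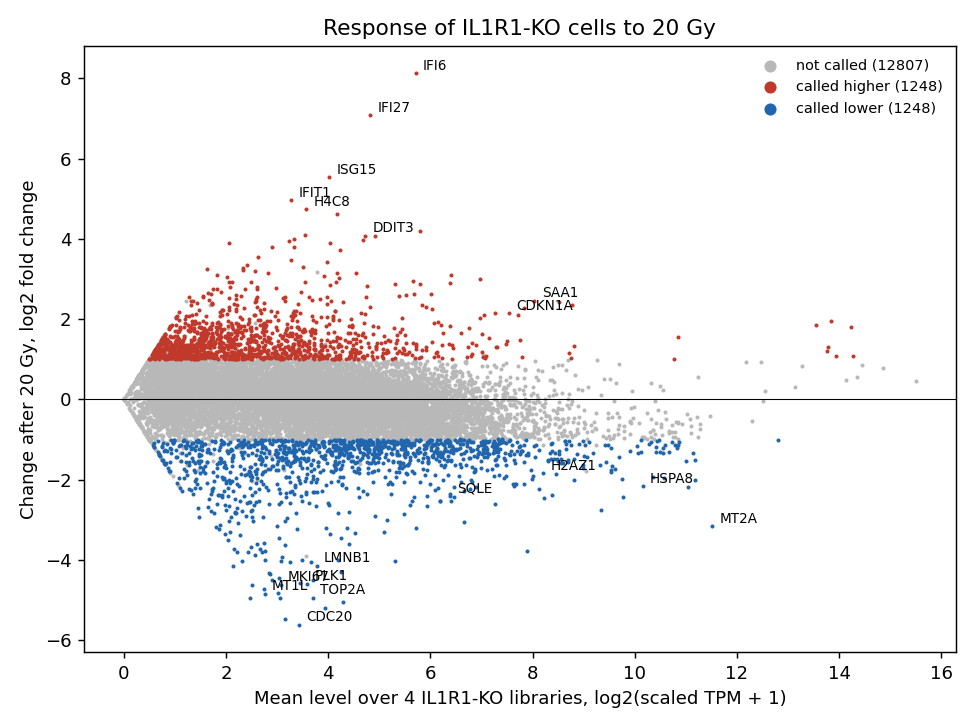
Change after 20 Gy in IL1R1-KO cells for the 15303 tested genes (y axis, difference of log2(scaled TPM + 1) between the means of 2 irradiated and 2 untreated libraries) against their mean level over the 4 libraries (x axis, same log2 scale). Red and blue points are the 1248 genes called higher and the 1248 called lower, grey points were not called, and interferon-induced genes such as IFI6 sit at the top and mitotic genes such as CDC20 at the bottom.

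Among WT cells 1079 genes were higher (7.05%) and 942 lower (6.16%) after RT, 13.2% in either direction. Of the genes higher in IL1R1-KO cells, 618 were also higher in WT, which is 49.5% of the IL1R1-KO list and 57.3% of the WT list. Of the genes lower, 705 were shared, 56.5% of the IL1R1-KO list and 74.8% of the WT list. A gene called in IL1R1-KO cells and not in WT need not differ between them. The difference between the responses, tested as the interaction of genotype and RT, was called for 79 genes whose response was above that of WT (0.516% of genes tested) and for 142 genes below it (0.928%), or 1.44% in either direction. Of the 630 genes called higher in IL1R1-KO and not in WT, 41 had such a difference, and of the 543 called lower, 15 did. Those numbers depended on the libraries and the scaling.

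The interferon-induced effectors rose together. Of 39 measured members of this list, 32 rose, none fell and 7 did not pass the test, with a median log2 fold change of 2.00 beside 0.01 over all genes. IFI6, an antiviral membrane protein, went from 2.17 and 2.11 to 828 and 925 scaled TPM, a log2 fold change of 8.12 (SE 0.49, adjusted p = 1.53e-06). IFI27 went from 1.46 and 1.39 to 283 and 379 scaled TPM. The ubiquitin-like protein ISG15 went from 1.92 and 0.940 to 101 and 119 scaled TPM. In each of these genes the untreated libraries were near 0 and both irradiated libraries were far above them. IFIT1, which binds foreign RNA, went from 0.571 and 0.912 to 46.98 and 59.7 scaled TPM, and its relative IFIT2 from 2.12 and 1.32 to 33.8 and 39.2. The oligoadenylate synthetases, which activate an RNA-degrading enzyme, rose from 19.1 and 19.8 to 146 and 152 for OAS1 and from 1.86 and 1.80 to 46.9 and 48.7 for OAS2. RSAD2 (viperin) and the related genes IFI44 and IFI44L rose by log2 fold changes of 3.89, 4.61 and 4.08. Members that did not pass included IFITM3 and IFITM2, which block viral entry and were already abundant before RT, at 1048 and 1179 scaled TPM for IFITM3 and 458 and 548 for IFITM2.

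The promoters of these effectors often carry the letters of the ISRE. In the RefSeq promoter table (GRCh38.p14, 250 bases before to 50 after the start of transcription), the letters GAAANNGAA on either strand were found in 23 of the 33 list members with an entry (69.7%), against 8.3% of all 27305 promoters. The windows below are shown because they hold these letters in 3 of the genes that rose most, with each match in capitals, overlapping matches merged, and 5′ to 3′ on the gene's strand. They lie at chr1:27672268-27672357 (minus strand) for IFI6, chr1:1013372-1013421 (plus strand) for ISG15 and chr10:89392498-89392547 (plus strand) for IFIT1, whose matches read on the opposite strand.
IFI6: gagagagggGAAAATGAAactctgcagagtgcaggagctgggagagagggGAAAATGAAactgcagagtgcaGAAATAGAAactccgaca
ISG15: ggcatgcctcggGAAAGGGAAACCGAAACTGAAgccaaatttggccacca
IFIT1: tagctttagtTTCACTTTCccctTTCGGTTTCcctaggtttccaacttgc
Of the 27 effectors called higher with an entry, 18 held the ISRE letters (66.7%). Here and below, motif shares are of whole lists grouped by known function and were not tested against the response. The lists were chosen with earlier results of these data known. A match is a description of the sequence and does not show that a factor was bound.

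Of 19 measured interferon ligands, nucleic acid sensors and transcription factors, 7 rose and 1 fell. Sensors of viral RNA were among them: DDX58 (RIG-I) went from 3.0003 and 3.54 to 31.02 and 31.9 scaled TPM and IFIH1 (MDA5) from 11.2 and 10.4 to 38.02 and 42.03. Among transcription factors of the interferon signal, IRF9 went from 8.34 and 5.51 to 66.1 and 71.4 scaled TPM, a log2 fold change of 3.16, and STAT2 was at 1.19. The transcription factor IRF7 went from 0.581 and 0.586 to 11.8 and 10.3 scaled TPM. The receptor chain IFNAR2 had a log2 fold change of -1.11, while the other chain, IFNAR1, was at 0.13 and did not pass. The ligands themselves were at the limit of what was measured: IFNB1 reached at most 0.41 TPM and IFNL1 0.62 TPM in any library of the series, below the level needed for testing. The cytosolic DNA sensor CGAS (-0.31) and its adaptor STING1 (-0.78) did not pass the test.

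MHC class I genes, whose products show peptides to T cells, rose in 9 of 17 cases and fell in none. HLA-B went from 43.6 and 43.1 to 355 and 346 scaled TPM, a log2 fold change of 2.99 (SE 0.16, adjusted p = 7.66e-07), and was the largest change of the list. HLA-C, HLA-E and HLA-F rose by 1.54, 1.13 and 2.07. The light chain B2M went from 1122 and 1035 to 3111 and 3199 scaled TPM. HLA genes are close relatives whose reads could be split by counting, so the sharing between them is uncertain. The chaperones of peptide loading behaved otherwise, with PDIA3 at -0.55 and CALR at -0.35, neither called.

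The difference between the interferon responses of IL1R1-KO and WT cells passed the test at 2 members. The median difference of the response from that of WT over the 39 effectors was 0.61 on the log2 scale, beside -0.01 over all genes. IFIT1 differed from the WT response by 2.15 (SE 0.43, adjusted p = 0.0319) and IFIT2 by 1.43 (SE 0.28, adjusted p = 0.0279). The WT RT libraries were far apart for this list, with IFI6 at 149 and 598 scaled TPM and ISG15 at 19.99 and 46.7. The difference for IFI6 was 1.148 (SE 0.69, adjusted p = 0.452). The IL1R1-KO RT libraries did not show that spread. Leaving out 1 library ended the call of IFIT1 for 7 of the 8 libraries (differences of 1.61 to 2.68, adjusted p up to 0.118) and that of IFIT2 for 6 (1.22 to 1.65). The call of IFIT1 held without WT RT replicate 2, and that of IFIT2 without that library or without IL1R1-KO replicate 1.

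**Figure D2:**
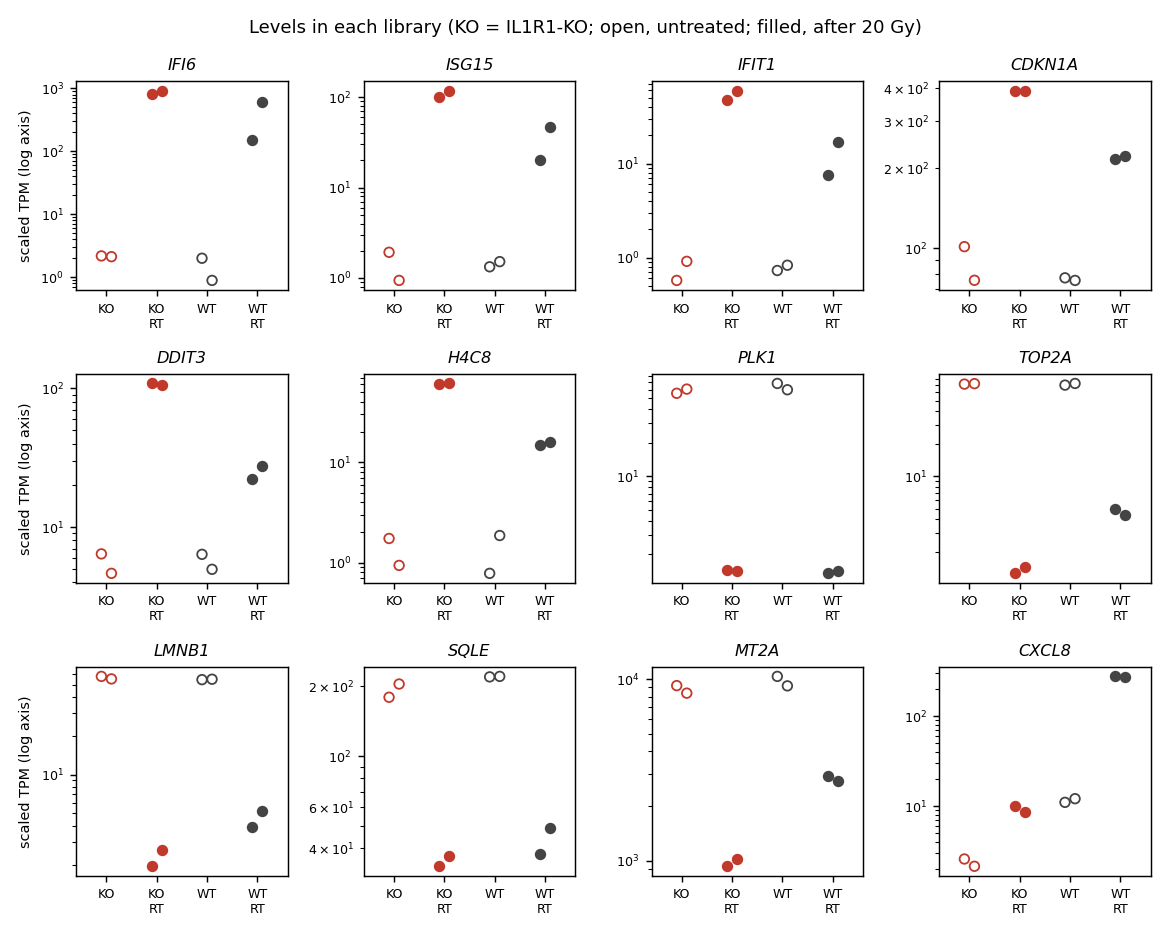
Levels of 12 genes in each of the 8 libraries of IL1R1-KO and WT cells (y axis, scaled TPM on a log axis), each point a library, open before and filled after 20 Gy. IL1R1-KO RT libraries lie close together and above untreated ones for IFI6, ISG15, IFIT1, CDKN1A, DDIT3 and H4C8 and below them for PLK1, TOP2A, LMNB1, SQLE and MT2A, and for CXCL8 the irradiated IL1R1-KO libraries stay below the untreated WT libraries.

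Genes of mitosis fell almost without exception. Of 44 genes of mitotic entry, kinetochore and spindle checkpoint, 43 fell and 1, the checkpoint gene BUB3 (-0.59), did not pass, with a median log2 fold change of -3.22. All 20 measured mitotic kinesins and condensins fell, with a median of -2.70. The kinase PLK1 went from 55.6 and 60.6 to 1.46 and 1.43 scaled TPM, a log2 fold change of -4.60 (SE 0.13, adjusted p = 5.38e-08). CDC20 went from 71.7 and 78.2 to 0.637 and 0.454 scaled TPM and UBE2C from 58.3 and 58.5 to 0.409 and 0.246, with no overlap between treated and untreated libraries. MKI67, the proliferation antigen Ki-67, went from 37.3 and 44.8 to 0.710 and 0.671 scaled TPM. PTTG1 (securin), which holds back separase, was the most abundant member and went from 292 and 287 to 29.9 and 37.98. The motor KIF2C fell by 4.64, KIF14 fell by 3.74 and the condensin subunit NCAPG fell by 3.58 in log2 fold change.

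The promoters of mitotic genes often hold the letters of the cell cycle homology region (CHR), the element through which DREAM represses late cell cycle genes, and CCAAT boxes. The letters TTTGAA on either strand were in 22 of 36 promoters of the mitotic list (61.1%) and 14 of 20 of the kinesin and condensin list (70%), against 15.4% of all promoters. CCAAT on either strand was in 27 of 36 (75%), against 35.7% of all promoters. Windows of 3 of the genes that fell most are shown with both elements in capitals, at chr1:43358871-43358940 (plus strand) for CDC20, chr16:23678804-23678873 (plus strand) for PLK1 and chr10:128126434-128126533 (minus strand) for MKI67, where a CHR and a CCAAT box read on the opposite strand overlap at the 3′ end.
CDC20: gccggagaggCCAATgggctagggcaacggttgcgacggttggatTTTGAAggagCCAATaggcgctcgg
PLK1: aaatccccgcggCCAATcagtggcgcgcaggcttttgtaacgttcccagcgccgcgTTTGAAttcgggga
MKI67: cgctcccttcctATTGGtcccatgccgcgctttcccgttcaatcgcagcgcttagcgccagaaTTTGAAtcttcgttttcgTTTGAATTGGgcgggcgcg
Promoters of the replication list held TTTGAA in 1 of 40 cases (2.5%).

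DNA replication and nucleotide synthesis genes fell in 41 of 46 cases, with a median log2 fold change of -1.74. RRM2, the small subunit of ribonucleotide reductase, fell by 4.05 and the thymidine kinase TK1 from 14.4 and 18.8 to 0.282 and 0.218 scaled TPM. The helicase subunit MCM6 fell from 27.8 and 28.9 to 4.88 and 4.91 scaled TPM, a log2 fold change of -2.32 (SE 0.11, adjusted p = 3.26e-07). The 5 members short of the threshold were MCM4 (-0.82), MCM7 (-0.93), PCNA (-0.84), RPA1 (-0.85) and RPA2 (-0.37), named after their values were seen. PCNA, the sliding clamp of DNA polymerases that also serves repair, stood at 145 and 145 before and 77.05 and 84.1 scaled TPM after RT. The E2F letters TTTNGCGC were in 14 of 40 promoters of this list (35%), against 1.8% of all promoters, and are shown in capitals for MCM6 (chr2:135876514-135876603, minus strand, with matches on both strands merged) and POLA2 (chr11:65261897-65261926, plus strand), a subunit of the polymerase that starts DNA synthesis.
MCM6: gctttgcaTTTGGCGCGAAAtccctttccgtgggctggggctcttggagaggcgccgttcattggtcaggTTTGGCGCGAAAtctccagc
POLA2: gttggctcccggTTTCGCGCatgcgtgcac
POLA2 had a log2 fold change of -1.16.

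Of 19 measured RB-E2F and DREAM regulators, 3 fell and 16 were not called. MYBL2 (B-Myb) fell from 17.3 and 21.1 to 0.227 and 0.218 scaled TPM and FOXM1 from 25.8 and 26.8 to 1.67 and 1.31, while E2F1 had a log2 fold change of -1.17. RB1 (-0.06), RBL2 (0.19) and E2F4 (-0.28) were not called. Among the G1 kinases CDK4 fell from 86.04 and 102 to 34.2 and 37.7 scaled TPM and CDK2 from 20.9 and 18.9 to 6.82 and 8.86. Cyclin CCNE2 fell by 1.80, and the D cyclins CCND1 (0.27) and CCND3 (0.85) did not pass. The difference of the mitotic response from that of WT was called for TOP2A alone among these lists, the topoisomerase that untangles chromosomes, which had a log2 fold change of -4.96 against -3.67 in WT, a difference of -1.29 (SE 0.18, adjusted p = 0.00567).

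**Figure D3:**
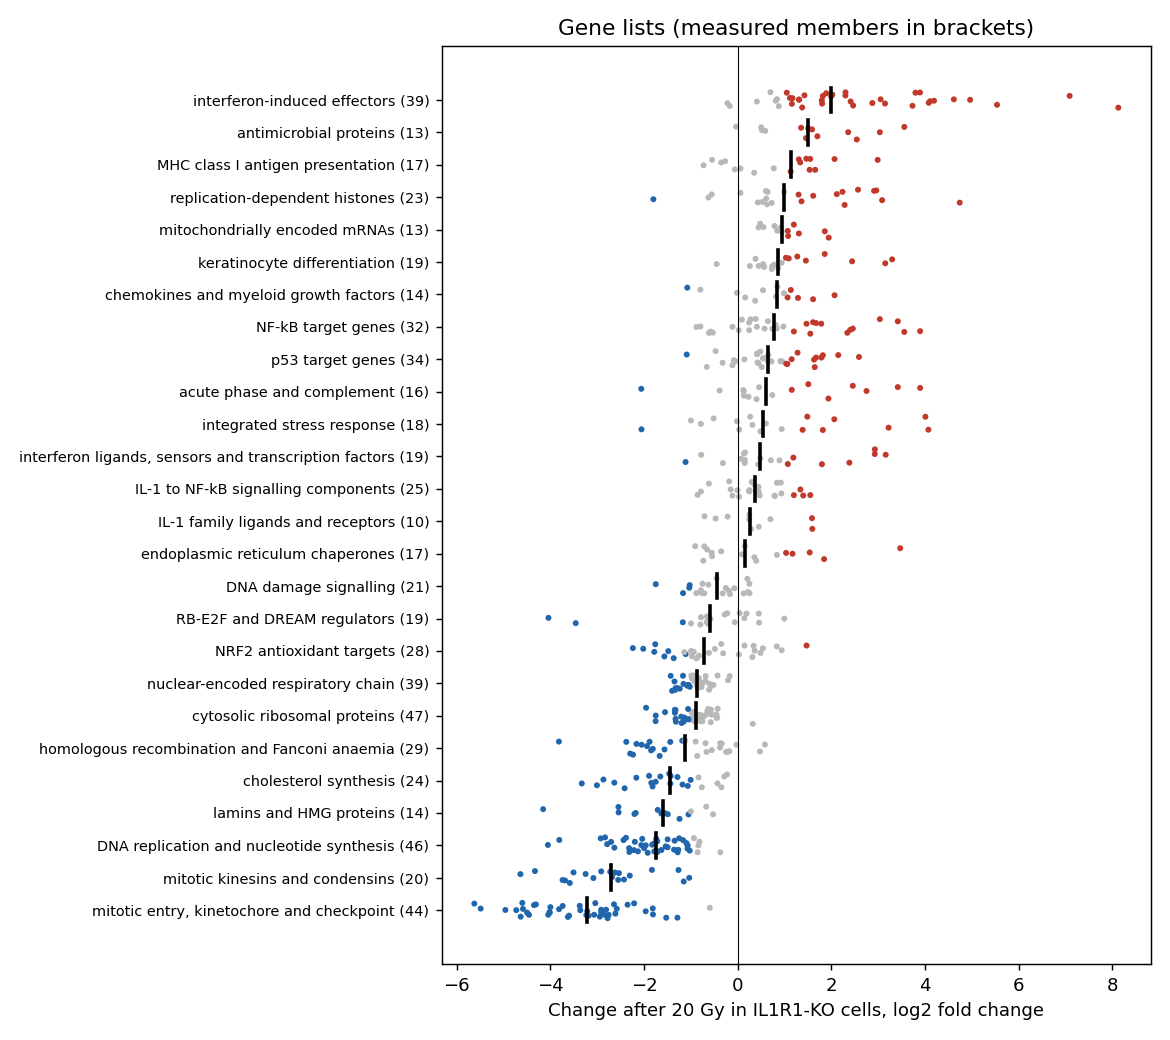
Log2 fold change after 20 Gy in IL1R1-KO cells of every measured member of 26 gene lists (x axis, difference of log2(scaled TPM + 1)), each point a gene, coloured where called higher (red) or lower (blue), with a black bar at the median of the list. Interferon-induced effectors lie to the right with a median of 2.00, mitotic genes to the left with a median of -3.22, and NF-κB target genes in between at 0.78.

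Chromatin genes split by kind. Replication-dependent histone genes, whose RNA normally lacks a poly(A) tail and is made in S phase, rose in 11 of 23 cases and fell in 1 (H2AC20, -1.80). H4C8 went from 1.74 and 0.940 to 60.2 and 61.1 scaled TPM, H2BC21 from 4.31 and 4.13 to 43.6 and 42.8 and H2AC6 from 35.1 and 24.7 to 221 and 235. The response of H4C8 was above that of WT by 1.88 (SE 0.42, adjusted p = 0.0492), a call that ended without any 1 of the 8 libraries (1.53 to 2.22, adjusted p up to 0.173). Histone genes of a class are near copies of one another, so the split of reads between them is uncertain. The variants H2AZ1 and CENPA fell, with H2AZ1 from 544 and 576 to 159.6 and 151 scaled TPM and the centromeric CENPA at a log2 fold change of -2.94. Lamins and HMG proteins fell in 11 of 14 cases. LMNB1 (lamin B1), whose loss is a mark of senescence, went from 57.9 and 55.4 to 1.94 and 2.58 scaled TPM, a log2 fold change of -4.15 (SE 0.14, adjusted p = 7.8e-08), while LMNA was at -0.67 and did not pass. HMGB2 and HMGA1 had log2 fold changes of -2.54 and -2.54.

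p53 target genes rose in 11 of 34 cases and fell in 1, CMBL (-1.09). When libraries were scaled to nuclear protein-coding genes, 19 rose and none fell, with 2736 of all 15303 genes higher. CDKN1A went from 101 and 75.6 to 391.9 and 389.5 scaled TPM, a log2 fold change of 2.15 (SE 0.17, adjusted p = 6.97e-06). The stress cytokine GDF15 went from 16.2 and 19.7 to 118 and 107 scaled TPM, the mitophagy-related SPATA18 from 15.5 and 15.9 to 49.7 and 51.9 and the ribonucleotide reductase subunit RRM2B from 88.8 and 91.3 to 197 and 181. Other well-known targets did not pass: MDM2, a ubiquitin ligase, was at 0.72, BAX at 0.14 and RPS27L at -0.05. CCNG1 was lower after RT, at 289.8 and 303 against 449.5 and 489 scaled TPM, short of the fold threshold (-0.66).

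DNA repair genes fell in part. Homologous recombination and Fanconi anaemia genes fell in 14 of 29 cases and rose in none, led by the nuclease EXO1 from 19.8 and 18.8 to 0.346 and 0.549 scaled TPM and followed by FANCI (-2.29), UBE2T (-1.44) and XRCC2 (-1.93). Of 10 genes of end joining, 2 fell and 1 rose: the Ku subunits XRCC5 and XRCC6 had log2 fold changes of -1.36 and -1.13, and the ligase LIG4 rose from 9.37 and 7.02 to 18.7 and 17.7 scaled TPM. Of 21 damage signalling genes 4 fell, among them PARP1 from 217 and 222 to 97.4 and 96.9 and CHEK1 from 46.4 and 41.2 to 12.4 and 12.3 scaled TPM, while ATM was at 0.25 and did not pass. The calls of XRCC5, XRCC6 and PARP1 did not hold when libraries were scaled to nuclear protein-coding genes.

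Of the BCL2 family 4 members rose and none fell. BCL2L1, which encodes the survival protein BCL-XL, rose from 34.3 and 43.02 to 89.6 and 93.8 scaled TPM, a log2 fold change of 1.23 (SE 0.16, adjusted p = 0.000199), and was the called member of 4 anti-apoptotic genes measured. MCL1 was lower at 250.1 and 251 against 339 and 391.9 scaled TPM, short of the fold threshold. Of 10 pro-apoptotic genes, the BH3-only members PMAIP1 (NOXA, 1.65), HRK (1.64) and BBC3 (PUMA, 1.152) rose. In WT the BCL2L1 change was 0.44, and the difference of the responses, 0.79, did not pass (adjusted p = 0.11). Of 24 caspases, gasdermins and death receptor genes 2 rose (8.33%) and 1 fell (4.17%), beside 8.16% in each direction over all genes. Those called were TNFSF10 (TRAIL), higher from 2.04 and 1.80 to 11.97 and 17.4 scaled TPM, GSDMC, higher by 1.76, and the necroptosis gene MLKL, lower by 1.02.

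In the IL-1 pathway itself, 2 of 10 measured IL-1 family ligands and receptors and 4 of 25 signalling components rose after RT in IL1R1-KO cells, and none fell. The shares called higher were 20% and 16%, beside 8.16% over all genes. The antagonist IL1RN rose from 1.25 and 1.51 to 5.93 and 6.40 scaled TPM, and IL1RL1, the receptor for IL-33, was listed at 0 in both untreated libraries and at 1.81 and 2.21 scaled TPM after RT. The ligand IL1A was at 33.1 and 31.4 before and 48.1 and 58.2 scaled TPM after RT, short of the fold threshold (0.70). The ligand IL1B was at 6.71 and 8.81 before and 8.40 and 10.3 scaled TPM after RT, with overlapping ranges. In WT, IL1B went from 15.4 and 17.1 to 70.4 and 73.1 scaled TPM, so that its response in IL1R1-KO cells differed from that of WT by -1.84 (SE 0.22, adjusted p = 0.00282). The signalling components that rose were the kinase IRAK2 (1.34), the atypical inhibitor NFKBIZ (1.55) and the deubiquitinases TNFAIP3 (1.20) and CYLD (1.40). IRAK1 was at 44.7 and 49.99 before and 48.3 and 46.04 scaled TPM after RT. MYD88 (0.79), IRAK4 (0.92), MAP3K7 (0.03), IKBKG (-0.78) and NFKB1 (-0.85) were not called.

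NF-κB target genes rose in part, and many had a smaller response than in WT. Of 32 measured, 13 rose and none fell in IL1R1-KO cells, with a median log2 fold change of 0.78, beside 22 and a median of 2.14 in WT. For 16 of the 32 the response was below that of WT by the test, and for none above it. In IL1RAP-KO cells 15 of them rose and 2 fell, with a median of 0.66. CXCL8 (interleukin-8), which draws neutrophils, went from 2.60 and 2.16 to 10.01 and 8.62 scaled TPM in IL1R1-KO cells and from 11.1 and 12.1 to 276 and 275 in WT, a difference of -2.85 (SE 0.16, adjusted p = 6.43e-05). The irradiated IL1R1-KO libraries thus stayed below the untreated WT libraries. SOD2, the mitochondrial superoxide dismutase, went from 141 and 118 to 399 and 325 in IL1R1-KO cells and from 606 and 601 to 6304 and 5569 scaled TPM in WT. BIRC3, an inhibitor of apoptosis, rose by 2.34 against 3.41 in WT. The complement factor CFB rose by 3.42 and by 4.28 in WT, with a difference of -0.87 that missed the fold threshold.

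Chemokines and myeloid growth factors followed the same order. Of 14 measured, 5 rose and 1 fell, and the response of 7 was below that of WT. CXCL1 went from 2.69 and 2.93 to 15.96 and 14.02 scaled TPM, against 31.8 and 31.2 to 1060.2 and 987 in WT, a difference of -2.91 (SE 0.21, adjusted p = 0.000156). CSF3, the granulocyte growth factor, went in opposite directions: it fell from 5.88 and 7.85 to 2.67 and 2.73 scaled TPM in IL1R1-KO cells and rose from 25.6 and 23.6 to 77.99 and 81.6 in WT. CCL2, which draws monocytes, was at 0.571 and 0.874 before and 1.89 and 2.30 scaled TPM after RT, against 2.77 and 2.02 before and 59.1 and 57.5 after RT in WT. The interferon-induced chemokine CXCL10, listed at 0 in both untreated IL1R1-KO libraries, was at 1.79 and 1.13 scaled TPM after RT and at 2.13 and 1.77 in WT RT. The NF-κB letters GGGNNTTTC on either strand were in 4 of 9 chemokine promoters (44.4%) and 7 of 24 of the NF-κB target list (29.2%), against 4.7% of all promoters. They are shown in capitals for CXCL1 (chr4:73869303-73869332, plus strand) and CXCL3 (chr4:74038750-74038779, minus strand), neighbours in 1 chemokine cluster with near-identical windows.
CXCL1: tctggaactccGGGAATTTCcctggcccgg
CXCL3: tctggagctccGGGAATTTCcctggcccgg
CXCL3 was at 0.457 and 0.465 before and 1.01 and 0.785 scaled TPM after RT (0.37, not called) and at 15.02 and 12.1 in WT RT.

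The antimicrobial genes LTF and S100A7, both of low level before RT, had the lowest differences from the WT response among the called genes. With a pseudocount of 0.1 in place of 1 the difference of S100A7 was -3.83 and its call ended (adjusted p = 0.0998). Of 13 measured, 9 rose in IL1R1-KO cells, and the response of 9 was below that of WT. LTF (lactoferrin), an iron-binding protein, went from 0.0857 and 0.251 to 2.61 and 2.98 scaled TPM, against 3.31 and 2.09 to 1036 and 662 in WT, a difference of -6.13 (SE 0.42, adjusted p = 0.000156). The alarmin S100A7 went from 0 and 0.474 to 4.56 and 8.01 scaled TPM, against 0.455 and 1.55 to 399.8 and 307 in WT. LCN2, which takes iron from bacteria, went from 0.333 and 1.45 to 20.5 and 20.002, against 1.53 and 1.05 to 323 and 522 in WT. The calprotectin genes were abundant and were not called: S100A9 was at 1583 and 1187 before and 1315 and 1365 scaled TPM after RT, while it went from 2039.9 and 2219 to 21328 and 19057 in WT, a difference of -3.28 (SE 0.21, adjusted p = 0.000137), and S100A8 differed by -3.11. The chitinase-like CHI3L1 and CHI3L2 rose by 1.59 and 1.35 against 5.03 and 4.67 in WT. The protease inhibitor SLPI went from 171 and 217 to 952 and 1033 scaled TPM and had a log2 fold change of 2.31 in WT, with a difference of 0.04 (SE 0.18).

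Acute phase and complement genes rose in 7 of 16 cases and fell in 1, and the response of 7 was below that of WT. SAA1 went from 89.7 and 138 to 555 and 681 scaled TPM, against 398 and 347 to 5785 and 5539 in WT. The difference was -1.47 for SAA1 and -2.79 for its close relative SAA2, between which reads may be shared. SERPINA1 (alpha-1 antitrypsin) had a log2 fold change of -2.06 against 0.06 in WT. Across all genes, 23 rose in both genotypes with a response below that of WT. Among them were the complement proteases C1R and C1S, the TNF-family ligand TNFSF15 and the pantetheinase VNN1, with differences of -1.82, -2.18, -1.79 and -2.07. The call of C1R ended without any 1 of the 8 libraries (-1.97 to -1.67, adjusted p up to 0.118) and with TPM as deposited (0.112). A further 82 genes with a response below that of WT by the test rose in WT and were not called in IL1R1-KO cells.

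**Figure D4:**
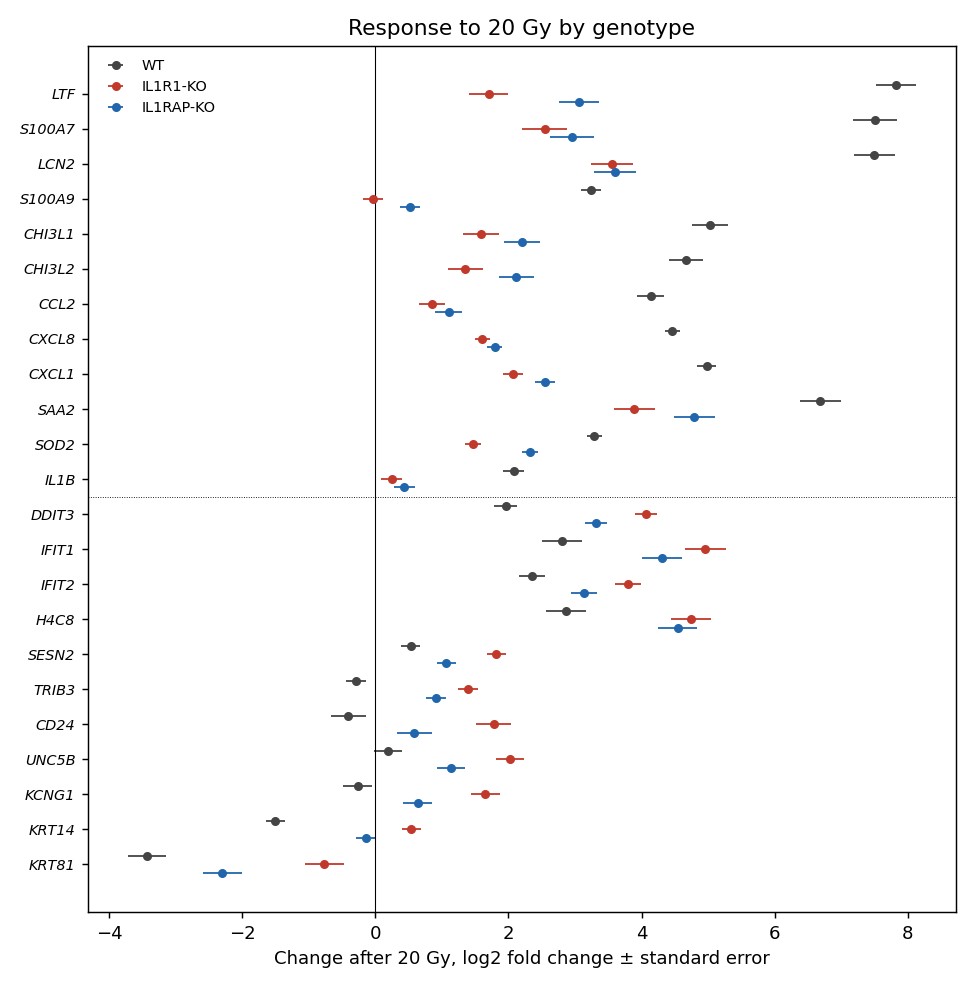
Log2 fold change after 20 Gy (x axis, difference of log2(scaled TPM + 1)) of 23 genes in WT, IL1R1-KO and IL1RAP-KO cells, each point with its standard error from limma as a bar. The upper genes, from LTF to IL1B, changed more in WT than in IL1R1-KO cells. The lower ones, from DDIT3 to KRT81, had a higher response in IL1R1-KO cells than in WT. All 23 were chosen for their difference between WT and IL1R1-KO cells. That the IL1RAP-KO point lies between the others for each of the 23 is therefore no test of IL1RAP-KO cells.

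The 79 genes whose response was above that of WT were of another kind. By the calls in IL1R1-KO and WT cells only, 9 of these rose in both and 41 rose in IL1R1-KO cells and were not called in WT. A further 14 fell in WT and were not called in IL1R1-KO cells, 14 were called in neither, and 1, LGALS1 (named after its values were seen), fell in both. The difference of LGALS1 was 1.01 (SE 0.21, adjusted p = 0.0405), at the fold threshold, and its call ended without 7 of the 8 libraries in turn (0.82 to 1.20), every one but IL1R1-KO replicate 2. Genes of the integrated stress response, the program by which cells under stress reset translation through ATF4, made up 5 of them. DDIT3 (CHOP), a transcription factor of that program, went from 6.40 and 4.63 to 109 and 106 scaled TPM, against 6.36 and 4.95 to 22.1 and 27.6 in WT, a difference of 2.11 (SE 0.24, adjusted p = 0.00197). The others, named after their values were seen, were TRIB3 (1.39 against -0.29), SESN2 (1.82 against 0.54) and the subunits of an amino acid transporter, SLC7A5 (0.31 against -1.19) and SLC3A2 (0.60 against -0.55). The calls of SLC7A5 and SLC3A2 each ended without 6 of the 8 libraries in turn, and held without IL1R1-KO replicate 2 or WT RT replicate 2. SLC7A5 was at 398 and 586 before and 580.1 and 623 scaled TPM after RT in IL1R1-KO cells and fell to 202 and 285 in WT RT. ATF4 itself was at 0.03 and was not called. Of the 18 members of this list 7 rose and 1 fell in IL1R1-KO cells, with CHAC1, an enzyme that breaks down glutathione, from 0.629 and 0.670 to 15.7 and 13.2 scaled TPM and PPP1R15A, which restarts translation, from 6.74 and 6.57 to 30.5 and 31.4. PHGDH, the entry enzyme of serine synthesis, fell from 130.3 and 97.5 to 26.7 and 26.1.

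Of 15 keratins, 3 had a response above that of WT. The basal keratin KRT14 was at 43.1 and 56.7 before and 64.1 and 81.7 scaled TPM after RT, while it fell from 81.97 and 83.3 to 27.6 and 29.6 in WT, a difference of 2.04 (SE 0.20, adjusted p = 0.000973). The hair keratin KRT81 was at 638 and 1355 before and 499.5 and 599 scaled TPM after RT, while it fell from 1366 and 1129 to 95.9 and 137 in WT, and KRT6A differed by 1.10. KRT5, the partner of KRT14, fell in both, with log2 fold changes of -1.13 and -1.41. KRT16, a keratin of stressed skin, rose from 42.5 and 19.5 to 136 and 149 scaled TPM. Among differentiation genes of keratinocytes 8 of 19 rose, with the kallikrein proteases KLK5 from 1.33 and 1.40 to 18.002 and 22.3 and KLK7 from 2.14 and 3.15 to 31.5 and 37.8. The surface glycoprotein CD24 rose from 42.5 and 76.2 to 180.1 and 218 scaled TPM and was at 40.3 and 60.1 in WT RT, a difference in response of 2.19 (SE 0.37, adjusted p = 0.0154). The netrin receptor UNC5B rose from 5.77 and 9.43 to 33.98 and 32.7 and the potassium channel subunit KCNG1 from 3.49 and 5.80 to 15.5 and 17.2, with no call in WT.

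Metallothioneins bind zinc and copper. Of 5 measured members of their list, which also holds the zinc exporter SLC30A1, 2 fell, and both had a response below that of WT. MT2A went from 9204 and 8368 to 932 and 1020.2 scaled TPM, against 10346 and 9175 to 2920.3 and 2754 in WT, a difference of -1.39 (SE 0.15, adjusted p = 0.00178). MT1E went from 919.8 and 835 to 61.9 and 63.1 and differed by -1.56. MT1L, a pseudogene of the same cluster on chromosome 16, went from 37.3 and 33.3 to 0 and 0.586 scaled TPM and stayed at 38.9 and 27.5 in WT RT, a difference of -4.79. Because these genes are near copies, reads may have been split between them. The zinc exporter SLC30A1 was at 0.57 and was not called.

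Other stress genes moved in both directions. Of 17 genes of endoplasmic reticulum chaperones and the unfolded protein response 5 rose, with CLGN (calmegin) from 2.03 and 1.80 to 32.8 and 29.7, DNAJB9 from 10.7 and 10.7 to 39.95 and 42.2 and XBP1 from 46.5 and 45.2 to 104 and 105 scaled TPM. The constitutive chaperone HSPA8 fell from 2395 and 2439 to 506 and 571 scaled TPM, and the small heat shock protein CRYAB rose from 0.895 and 0.577 to 9.12 and 8.71. Of 8 measured genes in the list of the aryl hydrocarbon receptor and its targets, 3 rose and 1, NQO1, fell (-1.76). The receptor AHR rose from 18.1 and 19.3 to 58.6 and 57.9 scaled TPM. The targets that rose were CYP1B1, from 34.98 and 22.4 to 256 and 238, and CYP1A1, from 2.56 and 0.614 to 39.8 and 32.1 scaled TPM. The transcription factors ATF3 and KLF4 rose by 4.01 and 2.49, and EGR1 fell by 1.23. Of 28 NRF2 antioxidant targets 8 fell and SOD2 rose. Here the untreated libraries were apart, with FTL (ferritin light chain) at 1775 and 448, NQO1 at 753 and 279.7 and ALDH3A1 at 166 and 47.6 scaled TPM, and IL1R1-KO replicate 1 above every other untreated library of the series. After RT NQO1 was at 125 and 146 and FTL at 418 and 391 scaled TPM, without such a gap. The part of that library in the list was not tested.

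Sterol synthesis fell as a pathway. Of 24 measured genes of cholesterol synthesis and its control, 18 fell and none rose, with a median log2 fold change of -1.45 beside -1.78 in WT, and no member differed from the WT response by the test. The squalene epoxidase SQLE went from 179 and 205 to 33.4 and 37.03 scaled TPM, DHCR7, which makes cholesterol in the last step, from 117 and 125 to 21.8 and 15.9, and INSIG1, the sterol sensor, fell by 3.33. HMGCS1, an early enzyme of the pathway, fell by 2.87. SREBF2, the transcription factor of the pathway, was at -0.83 and was not called. Of 15 genes of fatty acid synthesis 6 fell, with the desaturases FADS2 from 97.9 and 115 to 10.1 and 9.57 and SCD from 537 and 469 to 129.7 and 134 scaled TPM.

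Mitochondrial RNA and nuclear genes for the same complexes parted. Of the 13 mRNAs of mitochondrial DNA 6 rose and none fell, with MT-ND1 from 6983 and 5682 to 22122 and 23641 and MT-ND2 from 8542 and 6631 to 28293 and 29633 scaled TPM. Of 39 nuclear genes of the respiratory chain 13 fell and none rose, with a median of -0.87, such as ATP5F1C from 381 and 376 to 141 and 144 and CYC1 from 206 and 229 to 80.96 and 79.2. The mitochondrial transcription factor TFAM fell from 72.1 and 68.8 to 28.9 and 26.9 scaled TPM. Of 47 cytosolic ribosomal protein genes 18 fell, with a median of -0.89, beside none called and a median of -0.27 in WT. IL1RAP-KO cells had 14 lower and a median of -0.785. In IL1R1-KO cells the difference from the WT response had a median of -0.64 but passed the test with its fold threshold for no member. RPL10A, a protein of the large subunit, went from 1403 and 1469 to 401 and 454 in IL1R1-KO cells and from 1465 and 1435 to 898 and 682 scaled TPM in WT, a difference of -0.86 (SE 0.18, adjusted p = 0.037).

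These falls of abundant genes depend on how libraries were scaled. Genes often taken as stable fell too, GAPDH from 4824 and 4478 to 1076 and 1242 scaled TPM and PPIA from 3899 and 3908 to 1297 and 1427, and 10 of 15 such genes were called lower. When each library was scaled to its nuclear protein-coding genes, the median of all genes rose by 0.39 on the log2 scale. The nuclear respiratory chain then had 0 calls, ribosomal proteins 4 and cholesterol synthesis 12, the mitotic list 42 of 44, the kinesins and condensins 17 of 20 and the interferon effectors 36 of 39. The IL-1 signalling list had 9 of 25 higher, the chemokines 8 of 14, the TNF superfamily 8 of 16 and the lysosomal list 7 of 30. Damage signalling had 1 lower. Over all 15303 genes that scaling called 2736 higher and 566 lower, against 1248 and 1248 in the main fit. Relative to the median of all genes, the medians of the respiratory chain, ribosomal, cholesterol, mitotic, kinesin and interferon effector lists moved by at most 0.21. The median of the DNA damage signalling list, among others, changed sign (-0.45 and 0.01). Among the genes named here, the calls of ATP5F1C, CDK2, CDK4, CMBL, CSF3, CYC1, E2F1, EGR1, IFNAR2, KRT5, MLKL, POLA2, TFAM and UBE2T also ended under that scaling.

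Adhesion and mesenchymal genes changed at single points. Of 16 genes of the epithelial-mesenchymal transition 6 fell, with the matrix protein SPARC from 58.4 and 65.4 to 3.89 and 5.66, vimentin (VIM) from 678 and 545 to 130.02 and 126 and the epithelial adhesion molecule EPCAM from 141 and 136 to 42.3 and 41.6 scaled TPM, while CDH1 (E-cadherin) was at 0.13 and was not called. In the hemidesmosome list 1 of 17 was called, the collagen COL17A1, from 156 and 151 to 306 and 329. The EGF receptor ligands HBEGF (2.05), EPGN (1.08), BTC (1.07) and EREG (1.13) rose, and AREG was at -0.42. Of 31 secreted factors tied to senescence 10 rose and 3 fell. VEGFA rose from 36.8 and 38.8 to 151 and 126 scaled TPM and TIMP1 from 299 and 301 to 602 and 625, while IL6, a typical member, was at 0.02 and was not called. In the TNF superfamily 5 of 16 rose, in the TGF-beta and YAP target list 1 rose and 2 fell of 16, and in the lysosomal list 2 of 30 rose (GAA, 1.47, and TPP1, 1.08). The shares called higher were 5.88% in the hemidesmosome, 6.25% in the TGF-beta and YAP and 6.67% in the lysosomal list, beside 8.16% over all genes. The share called lower was 12.5% in the TGF-beta and YAP list, beside 8.16%.

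More of the long noncoding RNAs tested were called higher than lower. Of 2032 tested, 309 rose (15.2%) and 46 fell (2.26%), with a median log2 fold change of 0.38, while of 12278 protein-coding genes 852 rose (6.94%) and 1159 fell (9.44%), with a median of -0.05. In WT 246 long noncoding RNAs rose and 39 fell, with a median of 0.37. Genes were kept at a TPM of at least 1 in any 2 libraries, so a low transcript could enter through irradiated libraries alone. The long noncoding RNAs tested were low, with a median log2 level of 1.18 against 4.02 for protein-coding genes. The part of this filter in the shares and medians was not tested. Scaled to nuclear protein-coding genes, 28.7% of long noncoding RNAs and 1987 of 12278 protein-coding genes rose in IL1R1-KO cells. NEAT1, the scaffold of nuclear paraspeckles, went from 67.4 and 75.4 to 343 and 303 scaled TPM, a log2 fold change of 2.16 (SE 0.10, adjusted p = 4.14e-07). MALAT1 went from 1404 and 1062 to 2262 and 2696 and MIR22HG, a host gene of miRNA, from 13.6 and 13.4 to 42.6 and 46.1. The imprinted H19 fell from 34.9 and 41.2 to 0.691 and 2.26 scaled TPM. AC087632.2, annotated across PCLAF on the same strand of chromosome 15, fell from 105 and 118 to 2.37 and 2.44, and PCLAF, a PCNA-binding factor, from 87.6 and 95.99 to 2.01 and 1.13; reads of the overlap may have been counted for either. The long noncoding RNAs that rose spanned a median of 10.2 kb of genome, against 4.52 kb for those tested. Their median log2 level was also higher, at 1.60 against 1.18. Protein-coding genes that rose spanned a median of 25.98 kb, against 33.91 kb for those tested. The part of length in the response was not tested.

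Against IL1RAP-KO, the other receptor knockout, few differences passed. The response of IL1RAP-KO cells had 1256 genes higher (8.21%) and 1405 lower (9.18%), 17.4% in either direction, of which 811 higher genes were shared with IL1R1-KO (65% of the IL1R1-KO list and 64.6% of the IL1RAP-KO list) and 968 lower genes (77.6% and 68.9%). The test of the difference between those responses with limma called 0 genes above IL1RAP-KO and 3 below it (0.0196%), with 727 and 664 genes at an unadjusted p under 0.05. They were the pseudogenes AC004975.1 and AC107918.4 and the long noncoding RNA AP001094.1, named after their values were seen. AP001094.1 was listed at 0 in all 4 IL1R1-KO libraries, and AC004975.1 was at 6.92 and 6.33 scaled TPM before RT and listed at 0 in both libraries after it. None of the 3 calls held with a pseudocount of 0.1 (adjusted p = 0.368 for AC004975.1, 0.449 for AC107918.4 and 0.289 for AP001094.1). The call of AC107918.4 also ended without 6 of the 8 libraries in turn (-2.37 to -2.27, adjusted p up to 0.224), all but IL1R1-KO replicate 2 and IL1RAP-KO RT replicate 1, with a replicate block (0.138), with the compared groups fitted alone (0.19) and with nuclear protein-coding scaling (0.0538). This comparison rests on libraries that stand apart: the IL1RAP-KO RT replicates correlated at r = 0.974, with mitochondrial shares of 45.1% and 57%. Without IL1RAP-KO RT replicate 1, 186 genes were called above and 72 below. In the chemokine, antimicrobial and acute phase lists, 4, 7 and 8 genes rose in IL1RAP-KO cells, beside 5, 9 and 7 in IL1R1-KO cells. The response of LCN2 was 3.56 in IL1R1-KO and 3.603 in IL1RAP-KO cells, a difference of -0.05 (SE 0.44, adjusted p = 0.982). For IFI27 the values were 7.08 and 5.19, a difference of 1.90 (SE 0.85, adjusted p = 0.547).

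Markers of the line were present and those of other cell types were low. The 13 markers of basal mammary epithelium summed to 4528 to 5321 TPM before and 3713 to 4175 TPM after RT, and 8 measured of 14 luminal markers to 997 to 1024 TPM and 847 to 897 TPM. Of 11 fibroblast, 14 leukocyte and 9 endothelial markers 3 of each list were measured. Their sums were 25.6 to 28.7 TPM before and 50.8 to 55.97 TPM after RT for fibroblasts, mainly DCN (16.97 and 16.5 to 41.1 and 45.3 scaled TPM). For leukocytes the sums were 12.3 to 26.4 and 58.95 to 67.3 TPM, mainly CD14 (5.63 and 20.1 to 54.5 and 49.4 scaled TPM), a co-receptor of Toll-like receptors that epithelial cells can also express, while PTPRC was listed at 0 before RT and CD3E in all 4 IL1R1-KO libraries. For endothelium the sums were 3.5 to 4.66 and 8.01 to 10.8 TPM, with CDH5 listed at 0 before RT. The part of other cells in the changes was not tested.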

How the data were processed

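RNA from 12 MCF10A samples was sequenced by the authors as rRNA-depleted, stranded libraries. Per the study's methods and processing notes, reads were trimmed (cutadapt 1.15), aligned to GRCh38 (STAR 2.5.3a) and counted per gene (HTSeq), and the authors deposited TPM for 60675 genes. Read depth cannot be recovered from TPM. TPM were divided by trimmed mean factors (trims of 30% on log ratios and 5% on mean levels), genes with TPM of at least 1 in 2 libraries were kept, and log2(value + 1) was fitted with limma 3.58.1 (R 4.3.3) as 6 group means over 12 libraries with an intensity trend. Contrasts were RT against untreated per genotype and the differences between responses, with Benjamini-Hochberg adjustment. p-values rest on 2 libraries per group, with 6 residual degrees of freedom. The fit was tested on simulated data with known fold changes.

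Gene classes came with the deposited values, gene positions from GENCODE 44 and promoters from RefSeq. The gene lists, the members and the rule for named genes were chosen with earlier results of these data known. The rule named the 15 highest and 15 lowest called genes of mean log2 level at least 2 whose groups did not overlap, up to 4 called and 2 other members per list, the 8 highest and 8 lowest differences from each other genotype, and IL-1 pathway genes. Of the genes outside it, such as ATF4, C1R, C1S, CGAS, CMBL, CXCL3, IFNAR2, INSIG1, KRT6A, LGALS1, LMNA, MDM2, POLA2, RRM2, SERPINA1, SESN2, STAT2, TRIB3 and VNN1, each was chosen after its values were seen. Alternatives were other scalings, pseudocounts, filters, a fit of the compared groups alone, a replicate block and leaving out each library. Columns of the authors' comparisons were not used, and some genes are not reported here.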

Additional observations from a re-analysis of the deposited data

Results flagged for a closer look

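The responses of IL1R1-KO and WT cells to RT differed by the interaction test for 79 genes above and 142 genes below WT, and those of IL1R1-KO and IL1RAP-KO cells for 0 and 3 genes. Each value that follows is the log2 fold change in IL1R1-KO cells minus that in WT cells, for the genes named in the results whose difference passed the test.

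Among antimicrobial and acute phase genes, LTF was at -6.13, S100A7 at -4.97, LCN2 at -3.94, CHI3L1 at -3.44, CHI3L2 at -3.32, S100A9 at -3.28, S100A8 at -3.11, SAA2 at -2.79 and SAA1 at -1.47. C1S was at -2.18, SERPINA1 at -2.11 and C1R at -1.82. Among chemokines, cytokines and NF-κB targets, CCL2 was at -3.29, CXCL1 at -2.91, CXCL8 at -2.85, CSF3 at -2.74, CXCL3 at -2.21, VNN1 at -2.07, IL1B at -1.84, SOD2 at -1.82, TNFSF15 at -1.79, BIRC3 at -1.07 and IRAK2 at -1.06. Outside inflammation, MT1L was at -4.79, MT1E at -1.56, MT2A at -1.39 and TOP2A at -1.29. CSF3 fell in IL1R1-KO cells and rose in WT.

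Above WT, the keratins KRT81, KRT14 and KRT6A were at 2.66, 2.04 and 1.10, and CD24, UNC5B, KCNG1 and EPGN at 2.19, 1.83, 1.91 and 1.06. The stress genes DDIT3, TRIB3, SLC7A5, SESN2 and SLC3A2 were at 2.11, 1.68, 1.51, 1.28 and 1.151. IFIT1 and IFIT2 were at 2.15 and 1.43, and the histone gene H4C8 at 1.88. LGALS1 was at 1.01. Of the low-level transcripts, AC004975.1 and AC107918.4 were at -2.93 and -2.25 against WT, and the differences from the IL1RAP-KO response were -2.93 for AC004975.1, -2.32 for AC107918.4 and -3.96 for AP001094.1.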

How the results depend on the processing

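The calls of the response itself, 1248 genes higher and 1248 lower, kept within 1.5 times of these counts under every alternative but scaling to nuclear protein-coding genes, where 2736 were higher and 566 lower (82.9% of calls higher against 50%) and the median of all genes shifted by 0.39. Leaving out each library gave 1166 to 1266 higher and 1182 to 1386 lower. Replicate numbers did not pair the samples: deviations of same-numbered libraries correlated at -0.061 to 0.095, and with the number as a replicate block 1247 genes were higher and 1250 lower, 76 above and 134 below the WT response, and 0 and 2 for IL1RAP-KO.

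The difference from WT called 134 genes above and 79 below with TPM as deposited (62.9% above, against 35.7%), 410 above and 124 below when scaled to nuclear protein-coding genes (76.8% above, median shift 0.31), and 37 above with no filter on low values (24.7%). Without 1 library it called 23 to 106 above and 77 to 154 below, with the lowest above (23) without WT RT replicate 1. Other low counts above were 24 and 26 without an IL1R1-KO RT library and 28 and 29 without a WT library. The difference from IL1RAP-KO (0 above, 3 below: AC004975.1, AP001094.1 and AC107918.4, the last at 0.15 scaled TPM or less in the 4 irradiated libraries) became 1 above when scaled to nuclear protein-coding genes, 5 above and 9 below with no filter, 1 below at a TPM of at least 5 and 1 below with the compared groups fitted alone, and 0 to 186 above and 1 to 72 below without 1 library, highest without IL1RAP-KO RT replicate 1 and next, 12 above and 16 below, without IL1R1-KO replicate 2.

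IL1R1 in untreated IL1R1-KO against WT cells was at -0.10 and ranged from -0.33 to 0.12 without 1 library, 0.12 being without IL1R1-KO replicate 2. IL1RAP in the same comparison ranged from -0.15 to 0.0408 without 1 library. The other directions that turned belonged to uncalled genes. Scaling to nuclear protein-coding genes put IFITM2 at 0.30, CALR at 0.12, S100A9 at 0.44, RPS27L at 0.42, AREG at 0.0481, IL1R1 at 0.21, IRAK1 at 0.46, RPA2 at 0.0877, RB1 at 0.40, CGAS at 0.12 and E2F4 at 0.18. IRAK1 was at 0.0176 with TPM as deposited and 0.0181 with median-of-ratios factors. With no filter MAP3K7 was at -0.0492 and ATF4 at -0.0486, and with a TPM of at least 5 S100A9 was at 0.0641, RPS27L at 0.0493, IRAK1 at 0.0915 and RB1 at 0.0313. Without 1 library, the ranges that crossed 0 were -0.24 to 0.18 for S100A9, -0.042 to 0.29 for CDH1, -2.50 to 0.22 for RN7SL1 (above 0 without IL1R1-KO replicate 2), -0.44 to 0.0097 for IL1R1, -0.0822 to 0.0756 for IRAK1, -0.0242 to 0.0695 for MAP3K7, -0.0457 to 0.11 for ATF4 and -0.11 to 0.16 for IL6. The cause was not tested.

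Single libraries ended these calls of the response, given as ranges without 1 library: BBC3 (1.03 to 1.27), BTC (0.86 to 1.27), COL17A1 (0.98 to 1.10), CSF3 (-1.26 to -0.89), EPGN (0.88 to 1.27), EREG (0.95 to 1.29), KRT5 (-1.28 to -0.9965), LIG4 (0.88 to 1.26), MALAT1 (0.81 to 1.22), MLKL (-1.25 to -0.80), POLA2 (-1.44 to -0.90), RRM2B (0.9989 to 1.11), TIMP1 (0.99 to 1.06) and TPP1 (0.91 to 1.25). They also ended the difference from WT of BIRC3 (-1.15 to -1.01), C1R (-1.97 to -1.67), C1S (-2.60 to -1.76), CD24 (1.77 to 2.60), CXCL3 (-2.35 to -2.07), EPGN (0.86 to 1.25), IRAK2 (-1.16 to -0.98, ended without any 1 of the 8), KCNG1 (1.61 to 2.21), KRT81 (2.12 to 3.21), SAA1 (-1.77 to -1.16), SAA2 (-3.39 to -2.20), SESN2 (1.09 to 1.46), SLC3A2 (0.97 to 1.33), SLC7A5 (1.23 to 1.79) and UNC5B (1.52 to 2.15). Calls of the difference from WT also ended with a pseudocount of 0.1 (IFIT1, IFIT2, H4C8, SAA2, IRAK2, S100A7, EPGN, CXCL3 and AC107918.4), with no filter (IFIT1, IFIT2, H4C8, IRAK2, BIRC3, EPGN, SLC7A5, SLC3A2, CD24 and C1R), with TPM as deposited (IRAK2, BIRC3, SAA1 and C1R), with nuclear scaling (IRAK2 and BIRC3), with the replicate block (H4C8 and EPGN) and with the compared groups alone (IFIT1 and EPGN). Of the response itself, no filter ended those of RRM2B, LIG4, TIMP1, COL17A1, MALAT1 and POLA2, a TPM of at least 5 those of CSF3, MLKL and CMBL, median-of-ratios factors that of MLKL and the compared groups alone that of NQO1. The call of LGALS1 ended with TPM as deposited (1.30, adjusted p = 0.0662), median-of-ratios factors (0.9942), no filter (0.9942) and the replicate block (adjusted p = 0.057), and that of AC004975.1 against IL1RAP-KO with a pseudocount of 0.1, a TPM of at least 5, the compared groups alone and without IL1R1-KO replicate 1 or IL1RAP-KO replicate 2 (-2.98 to -2.87 without 1 library). Depth is unknown for TPM, so the precision of low genes such as IFNB1 cannot be stated.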
